A study of Mus musculus with 2 samples.

Results

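The 37 genes of the mitochondrial chromosome were examined as listed in GENCODE M21: 2 rRNAs, 22 tRNAs and 13 mRNAs. GLORI, in which glyoxal and nitrite deaminate unmethylated adenosines so that they are read as G while m6A is still read as A, had listed 44 sites on this chromosome in the cerebellum library, of 79355 sites in all (0.0554%), and 48 in the cerebrum library, of 188295 (0.0255%). Every listed position lay at an A of the reference on its own strand. The lists shared 36 positions, and 56 were in at least 1 of them.

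The 2 libraries were made from poly(A)+ RNA of the cerebellum and of the cerebrum of a female F1r hybrid at P0 (postnatal day 0), the cross of a C57 (C57BL/6J) mother with a PWK (PWK/PhJ) father, and both were GLORI treated. The mitochondrial genome is inherited from the mother, here the strain that the mm10 reference represents. With 1 library per tissue there were no replicates, so no tissue difference was tested, and a position in 1 list marks a difference between these 2 libraries. The lists hold positions without methylation rates, read counts or expression levels: a position missing from a list may be unmodified or too thinly covered, the tissue labels could not be set against levels of marker genes, and fewer cells rich in mitochondria and less mitochondrial RNA per cell cannot be told apart.

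Both strands of the mitochondrial genome are transcribed as long precursors. In most places tRNAs stand between the rRNAs and mRNAs, and their excision by the mitochondrial RNase P, whose catalytic subunit is Prorp, and by Elac2 frees the other RNAs. The methyltransferase Trmt10c with its partner Hsd17b10 is part of RNase P and adds N1-methyl to the purine at nucleotide 9 of mitochondrial tRNAs. The adenosine on the 3′ side of the anticodon can carry an N6-isopentenyl group, added by Trit1, where the anticodon ends in A, or an N6-threonylcarbamoyl group where it ends in U. The mitochondrial mRNAs encode subunits of respiratory complex I (the Nd genes), complex III (mt-Cytb), complex IV (the Co genes) and ATP synthase (the Atp genes). The methyltransferase complex that writes m6A in the DRACH motif (D is A, G or T, R is A or G, and H is A, C or T) acts on nuclear transcripts. GLORI records that an adenosine escaped deamination and does not name the chemical group that it carries.

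In the cerebellum library 17 sites lay in rRNAs, 19 in tRNAs and 5 in mRNAs on the strand of the gene, 2 were antisense to a gene and 1 lay between genes. In the cerebrum library the counts were 15, 20, 5, 8 and 0 in the same order. As a share of all adenosines of the genes in the reference, covered or not, tRNAs came first. They had 3.70% (95% Wilson interval 2.38 to 5.70) of 514 adenosines in the cerebellum list and 3.89% (2.53 to 5.93) in the cerebrum list. The rRNAs followed with 1.76% (1.10 to 2.80) and 1.55% (0.943 to 2.55) of 966. The mRNAs came last with 0.135% (0.0578 to 0.316) of 3699 in each library. The difference between tRNAs and rRNAs was 1.94 percentage points (Newcombe interval 0.258 to 4.05) for the cerebellum list and 2.34 (0.655 to 4.47) for the cerebrum list, and that between rRNAs and mRNAs was 1.62 (0.942 to 2.67) and 1.42 (0.782 to 2.41). As background, 0.425% of the exonic adenosines of nuclear coding genes with a site were listed in the cerebellum and 0.701% in the cerebrum. Over the 37 mitochondrial genes together, with or without a site, the share was 0.792% (0.584 to 1.07) and 0.773% (0.568 to 1.05). The nuclear genes were chosen for holding a site, which raises their share. All intervals here cover counting error over adenosines and take them as independent. Read depth of the gene classes is unknown, and its part in their order was not tested.

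**Figure D1:**
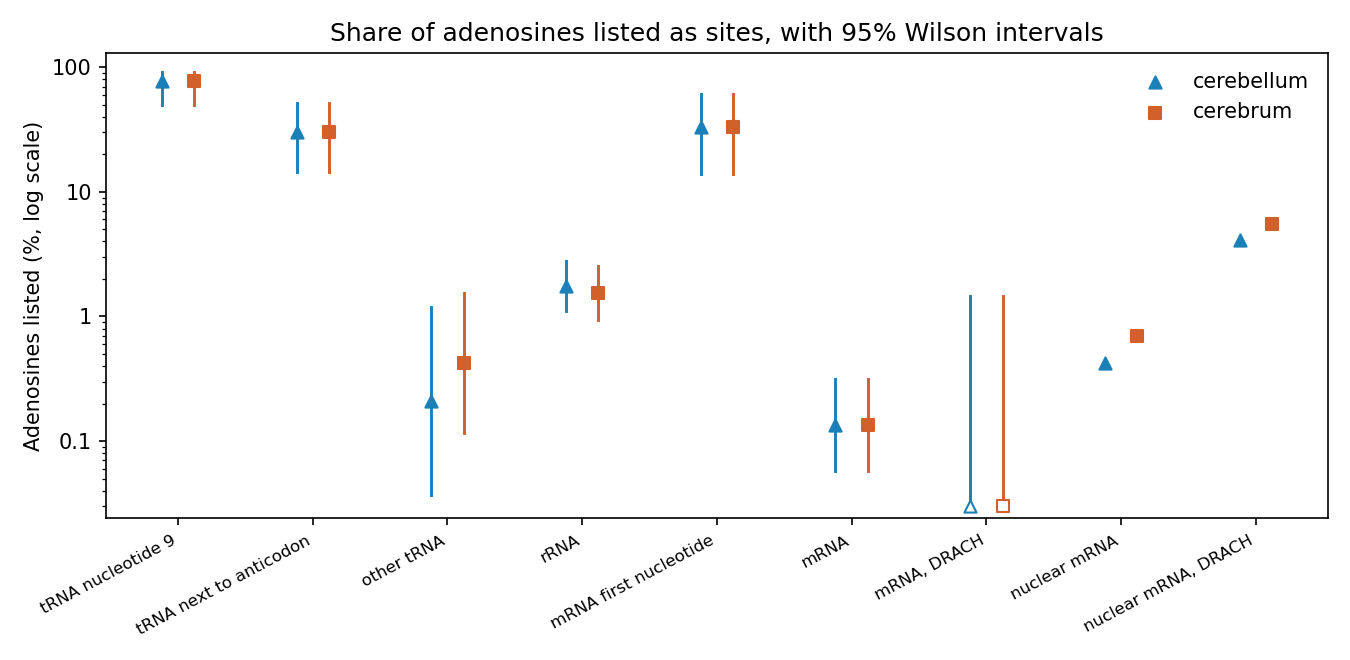
Share of adenosines listed as sites (vertical axis, percent, log scale) in groups of mitochondrial adenosines and in exons of nuclear coding genes with a site, for the cerebellum (triangles) and cerebrum (squares) libraries, with 95% Wilson intervals as lines (narrower than the symbol for the nuclear groups). Open symbols at the foot of the axis stand for 0 listed, and the groups within tRNAs and at mRNA starts were marked out after the positions had been seen. Nucleotide 9 of tRNAs stood highest, at 76.9% in each library, and DRACH adenosines of mitochondrial mRNAs were listed 0 times.

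The small ribosomal subunit RNA mt-Rnr1 (12S, 955 nt, 361 adenosines, MT 70 to 1024 on the plus strand) held 9 cerebellum sites, or 2.49% (1.32 to 4.67) of its adenosines, and 8 cerebrum sites, or 2.22% (1.13 to 4.31). Of these, 6 were found in both libraries, at nucleotides 1, 197, 264, 268, 787 and 846 from its 5′ end. The cerebellum list added nucleotides 196, 260 and 629, and the cerebrum list added 47 and 429. A gap of 1 nt separates the first nucleotide of mt-Rnr1 from the 3′ end of mt-Tf. The large subunit RNA mt-Rnr2 (16S, 1582 nt, 605 adenosines, MT 1094 to 2675) held 8 cerebellum sites, or 1.32% (0.672 to 2.59), and 7 cerebrum sites, or 1.16% (0.562 to 2.37). Here 6 sites were found in both libraries, at nucleotides 136, 138, 347, 1066, 1483 and 1488. Nucleotides 1061 and 1165 were in the cerebellum list alone, and 1484 in the cerebrum list alone. The intervals of the shares of both rRNAs overlapped in each library.

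The 12 rRNA sites of both libraries are given here on the RNA strand with 10 bases on either side, with the listed A in capitals, because their surroundings can be set against DRACH directly. MT positions are those of GRCm38, the assembly of mm10.
mt-Rnr1 nucleotide 1, MT 70: ccataaacacAaaggtttggt
mt-Rnr1 nucleotide 197, MT 266: caataaacgaAagtttgacta
mt-Rnr1 nucleotide 264, MT 333: catacgattaAcccaaactaa
mt-Rnr1 nucleotide 268, MT 337: cgattaacccAaactaattat
mt-Rnr1 nucleotide 787, MT 856: atttagtagtAaattaagaat
mt-Rnr1 nucleotide 846, MT 915: accgcccgtcAccctcctcaa
mt-Rnr2 nucleotide 136, MT 1229: gggaaagatgAaagactaatt
mt-Rnr2 nucleotide 138, MT 1231: gaaagatgaaAgactaattaa
mt-Rnr2 nucleotide 347, MT 1440: gagcttggtgAtagctggtta
mt-Rnr2 nucleotide 1066, MT 2159: ataagacgagAagaccctatg
mt-Rnr2 nucleotide 1483, MT 2576: acgaaaggacAagagaaatag
mt-Rnr2 nucleotide 1488, MT 2581: aggacaagagAaatagagcca

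Of these 12 sites, mt-Rnr1 nucleotide 264 alone stood in DRACH, and the cerebellum list added mt-Rnr2 nucleotide 1165. Over the 20 rRNA positions of either library, the base before the A was G at 9 (45.0%) and C at 6 (30.0%), against 14.4% and 15.4% of all rRNA adenosines, and the base after it was A at 10 (50.0%), against 41.6%. Some sites lay close together, though no expected number of close pairs was worked out. In mt-Rnr1, 3 pairs of neighbouring positions were at most 5 nt apart, and in mt-Rnr2 there were 4 such pairs. Some of the positions that differed between the libraries lay next to a shared one: nucleotide 196 beside 197 in mt-Rnr1, and 1484 beside 1483 in mt-Rnr2. The longest stretch without a site ran from nucleotide 347 to 1061 of mt-Rnr2 and held 275 adenosines. In mt-Rnr1 it ran from 429 to 629 and held 64. The last listed positions were nucleotide 846 of mt-Rnr1, 109 nt before its 3′ end, and 1488 of mt-Rnr2, 94 nt before its 3′ end. These stretches were found by their lack of sites, so no limit on the share listed was drawn from them.

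**Figure D2:**
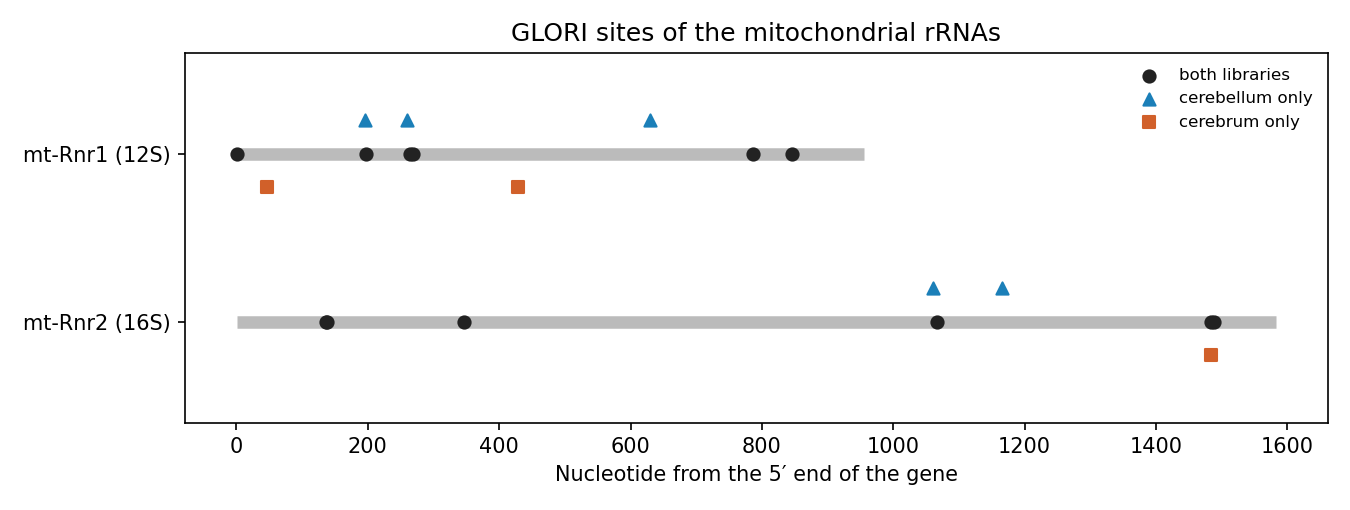
Sites of both mitochondrial rRNAs by nucleotide from the 5′ end of the gene (horizontal axis). Grey bars are the genes, circles on the bar are sites of both libraries, triangles above are sites of the cerebellum library alone and squares below are sites of the cerebrum library alone. Each rRNA had 6 sites in both libraries, and mt-Rnr2 had none between nucleotides 347 and 1061.

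The tRNAs held 19 cerebellum sites and 20 cerebrum sites, and 19 positions were shared. Sites lay in 14 of the 22 tRNAs: mt-Tf, mt-Tv, mt-Ti, mt-Tw, mt-Ta, mt-Ty, mt-Ts1, mt-Td, mt-Tg, mt-Tr, mt-Th, mt-Tl2, mt-Te and mt-Tt. The 8 without a site in either library were mt-Tl1, mt-Tq, mt-Tm, mt-Tn, mt-Tc, mt-Tk, mt-Ts2 and mt-Tp. Of the 20 positions in either library, 12 were at nucleotide 8 or 9, 6 were next to the anticodon, and 2 lay elsewhere. These places were marked out after the positions had been seen, the ninth nucleotide from earlier results on these data.

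Nucleotide 9 was A in 13 tRNAs, and it was listed in 10 of them in each library, the same 10 (76.9%, interval 49.7 to 91.8). They carry phenylalanine (mt-Tf), valine (mt-Tv), tryptophan (mt-Tw), alanine (mt-Ta), aspartate (mt-Td), glycine (mt-Tg), arginine (mt-Tr), leucine (mt-Tl2), glutamate (mt-Te) and threonine (mt-Tt). The ninth A was not listed in mt-Tn (asparagine), mt-Tk (lysine) and mt-Tp (proline). In 2 further tRNAs, mt-Ts1 (serine) and mt-Th (histidine), nucleotide 8 was A and was listed in both libraries, while nucleotide 9 was C and G. The windows of the 10 ninth-nucleotide sites are shown on the RNA strand because they share their central bases, and those of mt-Ta and mt-Te lie on the minus strand.
mt-Tf nucleotide 9, MT 9: aagttaatgtAgcttaataac
mt-Tv nucleotide 9, MT 1033: atcatagtgtAgcttaatatt
mt-Tw nucleotide 9, MT 4958: ctagaagtttAggatatacta
mt-Ta nucleotide 9, MT 5078: ttgaggtcttAgcttaattaa
mt-Td nucleotide 9, MT 6950: ataagatattAgtaaaatcaa
mt-Tg nucleotide 9, MT 9399: ttactcccttAgtataattaa
mt-Tr nucleotide 9, MT 9816: aatggtaattAgtttaaaaaa
mt-Tl2 nucleotide 9, MT 11679: ttacttttatAggataatagt
mt-Te nucleotide 9, MT 14131: gtgtttctgtAgttgaattac
mt-Tt nucleotide 9, MT 15297: atgtcttgatAgtataaacat

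In each of these 10 the listed A was preceded by T and followed by G. The same 3 bases stood around nucleotide 9 in 11 of the 13 tRNAs with A there, and the eleventh was mt-Tp, which was not listed. In mt-Tn and mt-Tk the base before was A. Among all tRNA adenosines, 31.1% were preceded by T and 23.2% were followed by G. The 2 sites at nucleotide 8 differed from each other: that of mt-Th was also preceded by T and followed by G, and that of mt-Ts1 was preceded by G and followed by C.

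The nucleotide on the 3′ side of the anticodon was A in 20 of the 22 tRNAs (G in mt-Tl2 and mt-Tp). For 10 of the 22, with mt-Ty, mt-Ts1, mt-Tl2 and mt-Tp among them, the anticodon was inferred by a rule that required A or G there. The A was listed in 6 tRNAs, the same 6 in both libraries (30.0%, interval 14.5 to 51.9). These were nucleotide 36 of mt-Tf, 33 of mt-Ti (isoleucine), 35 of mt-Tw, 32 of mt-Ty (tyrosine), 34 of mt-Ts1 and 34 of mt-Tt. Their windows are shown for the anticodon that ends just before the capital A, with mt-Ty and mt-Ts1 on the minus strand.
mt-Tf nucleotide 36, MT 36: aagcactgaaAatgcttagat
mt-Ti nucleotide 33, MT 3738: ttactttgatAgagtaaatta
mt-Tw nucleotide 35, MT 4984: cgagccttcaAagccctaaga
mt-Ty nucleotide 32, MT 5295: ttagactgtaAatctaaacac
mt-Ts1 nucleotide 34, MT 6905: attggcttgaAaccaatttta
mt-Tt nucleotide 34, MT 15322: ctggtcttgtAaacctgaaat

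In these 6 windows the base just before the capital A, the last letter of the anticodon, was A or T. Where it was A, 4 of 6 were listed in each library (mt-Tf, mt-Tw, mt-Ty and mt-Ts1, but not mt-Tl1 and mt-Tc). Where it was T, 2 of 6 were listed (mt-Ti and mt-Tt, but not mt-Tm, mt-Tn, mt-Tk and mt-Ts2). Where it was C or G, 0 of 8 were listed. This division was made after the positions had been seen. mt-Tf, mt-Tw, mt-Tt and mt-Ts1 had both a site at nucleotide 8 or 9 and one next to the anticodon.

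Outside nucleotides 8 to 10 and the place next to the anticodon, the cerebellum list held 1 of 473 tRNA adenosines (0.211%, 0.0373 to 1.19) and the cerebrum list held 2 (0.423%, 0.116 to 1.53). Nucleotide 69 of mt-Tv, its last, was listed in both libraries. It adjoins the first nucleotide of mt-Rnr2, an A that was not listed. Nucleotide 2 of mt-Td was listed in the cerebrum alone. Minus-strand tRNAs held 31.1% of the tRNA adenosines and 5 of the 19 cerebellum and 5 of the 20 cerebrum sites.

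**Figure D3:**
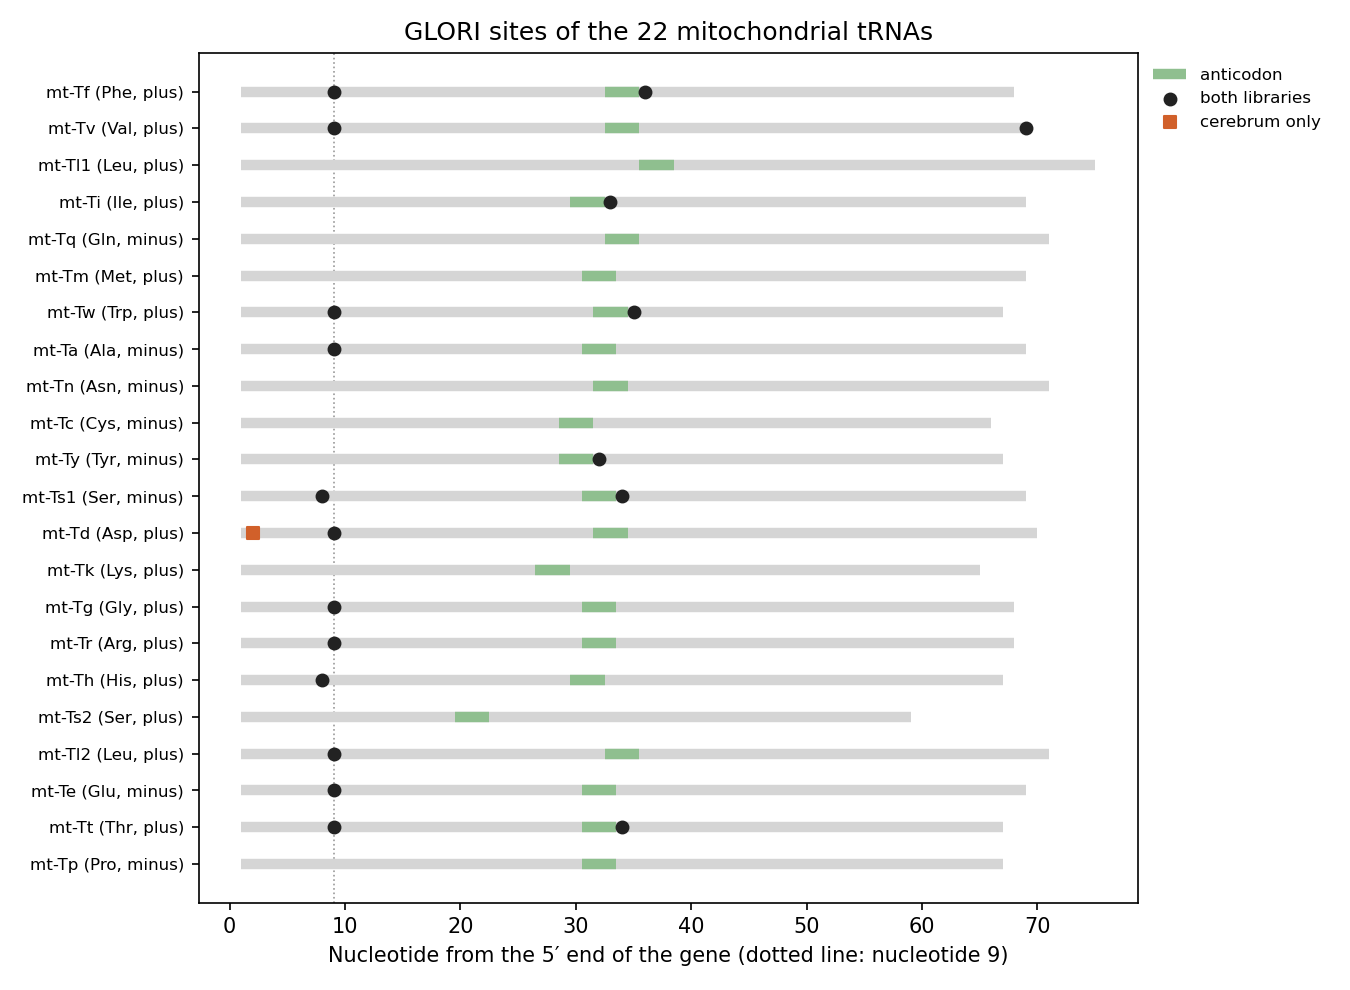
Sites of the 22 mitochondrial tRNAs by nucleotide from the 5′ end of the gene (horizontal axis). Each grey bar is a tRNA, labelled with its amino acid and strand, the green part is the anticodon, circles are sites of both libraries and the square is the site of the cerebrum library alone. Sites stood at nucleotide 8 or 9 in 12 tRNAs and just 3′ of the anticodon in 6.

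The mRNAs held 5 sites in each library, 4 of them shared, and every one lay within the first 2 codons. The first nucleotide of mt-Atp8 (ATP synthase), mt-Nd4l and mt-Nd5 (complex I) was listed in both libraries, as was nucleotide 4 of mt-Nd5. The first nucleotide of mt-Nd3 was listed in the cerebrum alone, and that of mt-Nd6, the single mRNA of the minus strand, in the cerebellum alone. The other 8 mRNAs had no site on their own strand in either library: mt-Nd1, mt-Nd2, mt-Co1, mt-Co2, mt-Atp6, mt-Co3, mt-Nd4 and mt-Cytb. The 4 shared sites are shown with their surroundings, which reach back into the tRNA upstream.
mt-Atp8 nucleotide 1, MT 7766: ccatagtgatAtgccacaact
mt-Nd4l nucleotide 1, MT 9877: aattaccaatAtgccatctac
mt-Nd5 nucleotide 1, MT 11742: aataaaagtaAtcaatatttt
mt-Nd5 nucleotide 4, MT 11745: aaaagtaatcAatattttcac

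Of the 12 mRNAs that begin with A, 4 were listed at that nucleotide in each library (33.3%, 13.8 to 60.9). The 12 divide by what lies upstream. For 7 a gap of at most 1 nt separates the gene from an upstream tRNA of the same strand: mt-Atp8 after mt-Tk, mt-Nd3 after mt-Tg, mt-Nd4l after mt-Tr, mt-Nd5 after mt-Tl2, mt-Nd6 after mt-Te, mt-Nd2 after mt-Tm and mt-Co2 after mt-Td. The first 5 of these were listed in at least 1 library, and mt-Nd2 and mt-Co2 were not. For the remaining 5 (mt-Co1, mt-Atp6, mt-Co3, mt-Nd4 and mt-Cytb), 0 were listed. This division, too, was made after the positions had been seen. All mRNA sites were at nucleotide 1 or 4 of their gene and therefore at the first codon position, which holds 33.4% of the mRNA adenosines. That codon position follows from their place at the gene start, so no preference within the reading frame was read from it.

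Beyond the first 2 codons, a boundary drawn after the positions had been seen, 0 of 3670 adenosines were listed on the mitochondrial chromosome in either library. Counting sites at nuclear copies of these mRNAs gave 2 for the cerebellum list (0.0545%, 0.0149 to 0.198) and 10 for the cerebrum list (0.272%, 0.148 to 0.501). Of the 259 DRACH adenosines of the mitochondrial mRNAs, 0 were listed (limit 1.16%), also with those nuclear copies counted. In exons of nuclear coding genes with a site, 4.11% of the DRACH adenosines were listed in the cerebellum and 5.49% in the cerebrum. Those genes were chosen for holding a site, which raises their share. The mitochondrial mRNAs were counted with or without one. Coverage along the mitochondrial mRNAs is unknown, so a listed share of 0 was not separated from low depth.

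**Figure D4:**
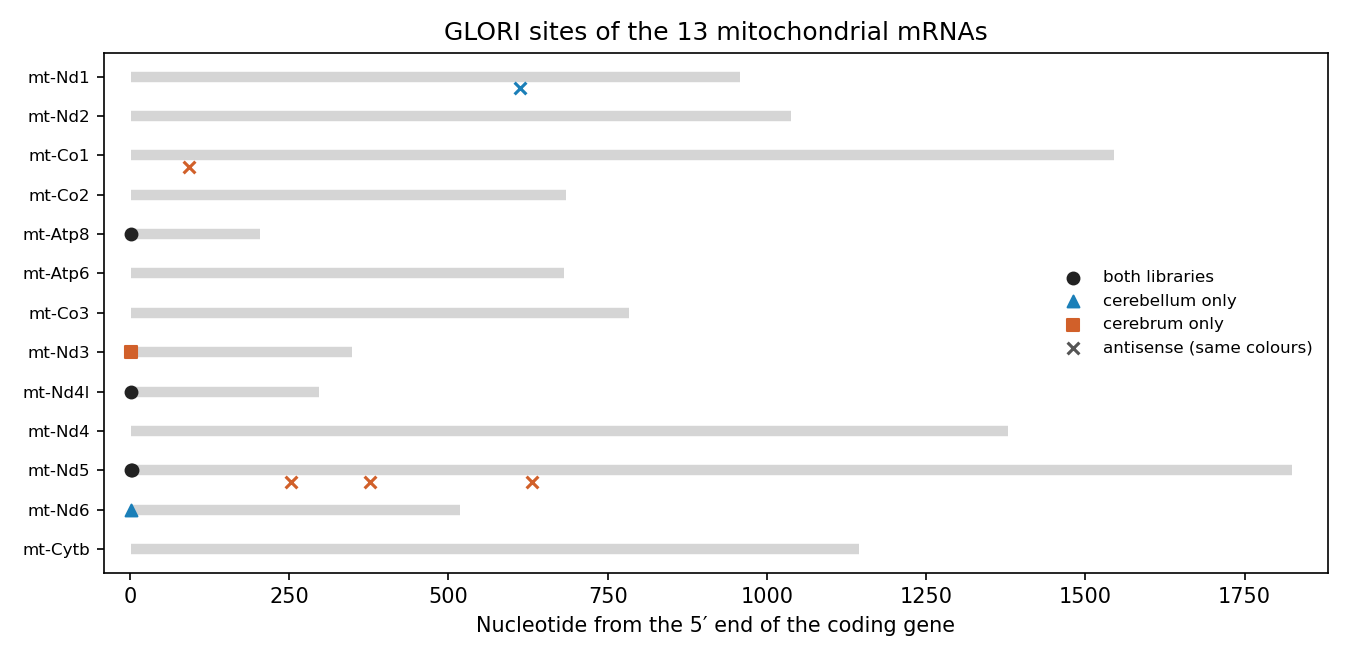
Sites of the 13 mitochondrial mRNAs by nucleotide from the 5′ end of the coding gene (horizontal axis). Grey bars are the genes, circles are sites of both libraries (those at nucleotides 1 and 4 of mt-Nd5 overlap), the triangle and the square are sites of 1 library, and crosses are antisense sites in the colour of their library. Sites on the strand of the gene stood at its start, and antisense sites stood within mt-Nd1, mt-Co1 and mt-Nd5.

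Sites that were not on the strand of a gene made up 3 of 44 for the cerebellum and 8 of 48 for the cerebrum, and 1 was shared. That one, at MT 3811 on the plus strand, lay opposite nucleotide 32 of mt-Tq (glutamine). The cerebellum list held MT 3363 on the minus strand, opposite nucleotide 613 of mt-Nd1, and MT 5177 on the plus strand, between mt-Tn and mt-Tc in the region of the light-strand replication origin. The cerebrum list held 7 more, all on the minus strand. They lay opposite nucleotides 723 and 779 of mt-Rnr1, 65 of mt-Ti, 93 of mt-Co1, and 253, 377 and 632 of mt-Nd5. The site opposite mt-Ti was 2 nt past the 3′ end of mt-Tq, a tRNA of the minus strand. With these, the minus strand held 15.9% (7.93 to 29.4) of the cerebellum list, 7 of 44, and 25.0% (14.9 to 38.8) of the cerebrum list, 12 of 48. On the strand of a gene there were 6 and 5 minus-strand sites. In the control region, MT 15423 to 16299, which holds the promoters, 0 of 554 adenosines of both strands were listed. The limit of 0.542% takes all 554 as covered. Coverage of this region is unknown, so a listed share of 0 was not separated from low depth.

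Mitochondrial sites recurred between the libraries more often than nuclear sites did. Of the cerebellum sites 81.8% (68.0 to 90.5) were also in the cerebrum list, against 60.8% of nuclear sites, a difference of 21.0 percentage points (7.26 to 29.7). Of the cerebrum sites 75.0% (61.2 to 85.1) were in the cerebellum list, against 25.6%, a difference of 49.4 points (35.6 to 59.5). Against nuclear sites outside DRACH, of which 27.6% and 8.28% recurred, the differences were 54.2 points (40.4 to 62.9) and 66.7 (52.9 to 76.8). On the strand of a gene, 35 of 41 and 35 of 40 recurred (85.4% and 87.5%). The tRNA sites recurred except for 1, nucleotide 2 of mt-Td, while 8 of the 20 rRNA positions were in 1 library. The cerebellum list held 79311 nuclear sites and the cerebrum list 188247, against 44 and 48 mitochondrial sites. The shorter list capped the share of nuclear cerebrum sites that could recur. Part of both cerebrum differences was therefore fixed by list length. Read depth was not available, and its part in these shares was not tested.

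The share of DRACH was low among mitochondrial sites, and its interval held the share among the other mitochondrial adenosines. In the cerebellum 3 of 44 sites stood in it (6.82%, 2.35 to 18.2) and in the cerebrum 2 of 48 (4.17%, 1.15 to 14.0), beside 7.11% (6.44 to 7.85) of the adenosines of the 37 genes listed in neither library. Among nuclear sites the share was 62.1% and 46.8%, and the difference, mitochondrial minus nuclear, was -55.3 percentage points (-59.8 to -43.9) and -42.6 points (-45.6 to -32.8). The 3 sites in DRACH were nucleotide 264 of mt-Rnr1 and 8 of mt-Ts1, in both libraries, and 1165 of mt-Rnr2 in the cerebellum.

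Stretches of mitochondrial sequence have been copied into the nuclear chromosomes, and a read from such a stretch may be placed at either. Of the 5177 adenosines of the 37 genes, 40.8% lay at the centre of a 31-mer that also occurs in the nuclear genome, and 45.4% did once every A was read as G. With A read as G the share was 12.5% in rRNAs, 58.6% in tRNAs and 52.2% in mRNAs. Adenosines without such a match were listed at 1.89% and 1.66% in rRNAs, 3.76% in both libraries in tRNAs, and 0.113% and 0.170% in mRNAs (cerebellum and cerebrum), which left the order of the classes as it was.

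The search found 133 nuclear stretches of 12034 bases in all. The longest lay on chromosome 1, at 24613118 to 24616184 (3067 nt). The stretches held 7 nuclear sites of the cerebellum list and 20 of the cerebrum list, and the 7 were in both. Matched to the strand of a mitochondrial gene, 5 of the cerebellum sites corresponded to tRNAs and 2 to mRNAs. Of the cerebrum sites 7 corresponded to tRNAs, 11 to mRNAs and 1 to mt-Rnr2 (nucleotide 554), and 1 was antisense to mt-Tr. Nucleotide 9 of mt-Tr (chromosome 1, 24612762), nucleotide 8 of mt-Th (chromosome 2, 69355627), and the place next to the anticodon in mt-Tw (nucleotide 35; chromosome 2, 22589991) and, in the cerebrum, mt-Tt (nucleotide 34; chromosome 4, 80005166) were listed both at the mitochondrial and at the nuclear position. The places next to the anticodon of mt-Tk (nucleotide 30; chromosome 1, 24614849) and mt-Tn (nucleotide 35; chromosome 2, 22589850) were listed at the nuclear copy in both libraries and not on the mitochondrial chromosome. That of mt-Tc (nucleotide 32; chromosome 2, 22589749) was listed at the copy in the cerebrum. Counting these, 8 of 20 places next to the anticodon were listed in the cerebellum and 9 of 20 in the cerebrum, while the 8 with an anticodon ending in C or G stayed at 0. The first nucleotide of mt-Co2 was listed at its copy in the cerebrum (chromosome 2, 22587962). The other mRNA copies lay away from the gene start. Nucleotides 214 and 220 of mt-Co2 were listed at the copy in both libraries, and the cerebrum list added 537 of mt-Co2, 1165 and 1332 of mt-Co1, 577 and 864 of mt-Nd2, 96 and 562 of mt-Atp6 and 1374 of mt-Nd5, positions that were not listed on the mitochondrial chromosome. Which of both places these reads came from cannot be told apart here.

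Nuclear genes of mitochondrial RNA transcription, processing and modification were counted as a list of 30, chosen by name. Sites were counted on the strand of the gene over its whole length, introns included. In the cerebellum 16 held a site (53.3%, 36.1 to 69.8), beside 41.2% of all 21938 nuclear coding genes. In the cerebrum 25 did (83.3%, 66.4 to 92.7), beside 57.4%. The list was not matched to those genes for expression or length, so nothing particular to it was read from these shares. A site was held in both libraries by 15. The 30 genes together held 35 cerebellum and 154 cerebrum sites, of which 27 were at the same positions. Among the subunits of RNase P, Trmt10c held 4 cerebellum and 12 cerebrum sites, Prorp (1110008L16Rik in GENCODE M21) held 2 and 9, and Hsd17b10 held 0 in both. Of the enzymes of other modified adenosines, Trit1 held 0 and 5, Tfb1m 0 and 2, and Trmt61b, whose human counterpart adds N1-methyl to adenosines of mitochondrial tRNAs and rRNA, 0 and 1. Trmt61b is annotated as noncoding in GENCODE M21, and the other 29 genes of the list are coding. The nuclease Elac2 held 0 and 4. Of the transcription genes, the packaging factor Tfam held 2 and 9, Tfb2m 2 and 16, and the polymerase Polrmt 0 and 1. Of the genes that act on mRNAs, the poly(A) polymerase Mtpap held 6 and 14 and the stabilising factor Lrpprc 3 and 12. Hsd17b10, the ribose methyltransferases Mrm2 and Mrm3, and the thiouridylase Trmu held 0 in both libraries. The cerebrum list is longer over the whole nuclear genome, 188247 against 79311 sites, so that these counts are not comparable between tissues as levels.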

How the data were processed

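GLORI libraries of 2 tissues were used, 1 per tissue. After mapping to mm10 and PWK-mm10 and calling with GLORI-tools, the authors retained positions whose methylation rate exceeded 0.1 and whose read count exceeded 8. The deposited files give a genomic position and a strand per site, with neither rates nor counts, so depth is unknown and levels could not be tested. The name of the cerebrum file carries an abbreviation of the cerebellum, and tissues were taken from the sample records.

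Positions were placed on GENCODE M21 genes of GRCm38 (the release named by the study differs) and counted from each gene's first nucleotide. Anticodons came from RefSeq for 12 tRNAs and from the sequence for 10 (triplet for the amino acid after T and before A or G, best stem), a rule that found the RefSeq anticodon in 9 of 12 and none in 3. A count of 0 allows up to 3 over the total. Nuclear copies were sought as 31-mers in 21 chromosomes. The nuclear background is exonic adenosines of the coding genes with a site, 8723 and 12250. Python 3.11.15 and numpy 2.4.6 were used. Placement recovered 200 of 200 positions when tested on simulated data. Members, lists and alternatives (neighbouring sites, shared sites, motif, matching within 1 nt, 51-mers) were chosen with earlier results of these data known. Each rRNA and mRNA site and each tRNA with a site was named.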

Additional observations from a re-analysis of the deposited data

How the results depend on the processing

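Of 44 alternative values, 39 lay close to the reported one, shares within its 95% interval and counts of sites within 1.5 times of it. The other 5, all shares, lay outside the interval. Some of the 39 could not have moved. Every site was at an A of the reference, the listed places next to the anticodon were the same in both libraries, and all mRNA sites were at the first codon position. The share of cerebrum sites on the minus strand, 25.0%, was 13.9% among sites of both libraries and 12.5% among sites on the strand of a gene, since 7 antisense minus-strand sites were in that list alone. The share of adenosines of the 37 genes with a nuclear match, 45.4%, was 39.0% with 51-mers and 40.8% with the sequence as in the genome. The share of mRNA adenosines listed beyond the first 2 codons of the cerebrum, 0, was 0.272% with sites in nuclear copies. Sites on the strand of a gene, matches without a change of letters, sites in nuclear copies and, for places next to the anticodon, sites of both libraries were alternatives chosen after seeing the data. Without sites within 10 nt of another, 31 and 37 mitochondrial sites were left of 44 and 48. No paired analysis was possible because each tissue had 1 library and no test was made. Depth is unknown, so positions missing from a list carry no evidence that the adenosine is unmodified, and sites of 1 library may differ by coverage alone, which was not tested. Leaving out each replicate was not possible with 1 library per tissue.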
